A study of Mus musculus with 2 samples.

Results

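Small nucleolar RNAs (snoRNAs) and a set of genes that carry them were followed as short fragments in the small RNA of fetal mouse liver. The set holds 12 of 17088 names in the deposited annotation (repeat-track names and RefSeq genes together). It consists of the 5 snoRNA families U17, U3, U8, U13 and U14 of the repeat track and the 7 RefSeq host genes Gas5, Snhg1, Snhg3, Snhg6, Snhg7, Snhg10 and Snhg11. The names were chosen by their read totals in the 2 libraries, so those totals are given as a description. Together the members cover 3099 of 2344366 distinct sequences. They hold 0.223% of wild type reads and 0.21% of Ago2ADH reads.

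The study sequenced 1 library from wild type and 1 library from Ago2ADH liver, both of strain background B6/129 at embryonic stage E18.5. Ago2ADH is an allele whose Argonaute 2 protein is catalytically inactive and cannot slice RNA. Total RNA was separated on a gel for molecules of 19 to 30 nt and read on an Illumina GA2. The deposited reads run from 15 to 34 nt. Those of 15 to 18 nt, given below for several members, lie outside the gel range. The part of the gel cut in their number was not tested. The labels do not say how many embryos or litters went into a library. With a single library per genotype no difference was checked against replicates, and no p-value is given. Each log2 ratio compares Ago2ADH with wild type in RPM (reads per 1000000 of all reads), and its 95% interval covers counting error only. A member "rose" or "fell" only if it had 100 or more reads over both libraries, a ratio of 2 or more or of 0.5 or less, and an interval that excluded 1.

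snoRNAs guide chemical modification of ribosomal and other RNAs, or take part in cutting the ribosomal precursor. Box C/D snoRNAs carry a C box near the 5′ end and a D box near the 3′ end and guide 2′-O-methylation, whereas box H/ACA snoRNAs end in an ACA trinucleotide and guide pseudouridylation. U17 is an H/ACA snoRNA needed for early cleavage of the ribosomal precursor. U3, U8 and U14 are C/D snoRNAs that act in processing of the precursor, and U13 is a C/D snoRNA that guides acetylation of the small subunit RNA. Most mammalian snoRNAs are cut from introns. Gas5 and the Snhg genes are hosts, most of them annotated as noncoding here; Snhg11 is annotated as protein coding.

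The 3 U17 genes used here are shown whole, because all U17 results turn on their ends. Each sequence is the annotated gene (GENCODE M21 on GRCm38), 5′ to 3′, and capitals mark the first 24 and the last 24 nt.
Snora73a: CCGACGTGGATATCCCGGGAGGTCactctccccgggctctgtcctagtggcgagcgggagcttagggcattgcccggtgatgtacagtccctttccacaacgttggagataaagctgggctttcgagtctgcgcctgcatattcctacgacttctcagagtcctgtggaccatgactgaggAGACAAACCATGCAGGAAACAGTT
Snora73b: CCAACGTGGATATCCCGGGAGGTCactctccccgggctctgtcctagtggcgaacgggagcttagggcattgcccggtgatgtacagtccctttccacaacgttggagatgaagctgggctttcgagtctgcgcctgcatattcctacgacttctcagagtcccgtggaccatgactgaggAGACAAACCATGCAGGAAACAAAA
Gm26448: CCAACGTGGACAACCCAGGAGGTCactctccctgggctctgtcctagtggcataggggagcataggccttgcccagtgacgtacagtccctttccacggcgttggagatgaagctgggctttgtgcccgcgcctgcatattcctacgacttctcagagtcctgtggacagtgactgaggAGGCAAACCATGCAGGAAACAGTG
Snora73a (chr4:132352775-132352979) and Snora73b (chr4:132352322-132352526) lie on the minus strand in introns 1 and 2 of Snhg3, which overlaps Rcc1 on the same strand. Gm26448 (chr9:120129351-120129553) lies on the plus strand in intron 3 of Rpsa, which encodes a ribosomal protein. Counted from 1 at the 5′ end, Snora73b differs from Snora73a within the first 24 nt by G3A, so 5′-end reads of the copies can be told apart.

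Reads of the other members with 100 or more reads are given next, except Snhg7, because each marks a stretch of the snoRNA discussed later. They come from the 3 most abundant reads of each member, not always in rank order. Capitals mark TGATGA, the letters of the C box core, or CTGA, those of the D box.
U3, internal: ccacgaggacgagacgtagcg
U3, start at position 23: tttctatagttcgttactagagaag
U8, 3′ end: gttgctcctatCTGAtt
U8, internal: gaaaaTGATGAttggagcttgcatgatc
U13, internal: aagcgTGATGAttgggtgtt
U14, 3′ end: ttccttggatgtCTGAgcgaa
U14, 5′ end: tcgctgTGATGAtgga
Gas5, Gm25789: ttactTGATGAtagtaaaagatCTGAtg
Gas5, Gm22489: agcccatgatggtatgagagtagt
Gas5, Snord47: accagtgatgTGATGAt
Snhg1, Gm25855: tatctgtgaggataagtaactCTGAgg
Snhg1, Gm22680: gattgctgttgagacttggaaatCTGAtt
Snhg3, Snora73b 5′ end: ttccaacgtggatatcccgggaggtc
Snhg3, Snora73a 3′ end: agacaaaccatgcaggaaACAgtt
In the last of these the capitals mark the ACA trinucleotide. The motif letters were searched on the read strand. Of all RefSeq reads, 1.69% held TGATGA in wild type and 1.89% did so in Ago2ADH. For CTGA the shares were 12.6% and 13.5%. Among Gas5 reads TGATGA stood in 65.8% in both libraries. U17 reads held TGATGA in 0 cases.

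The wild type library held 7599870 reads and the Ago2ADH library 7046197, so 3 reads correspond to 0.395 and 0.426 RPM. Fragments of the Ago2 mRNA, listed as Eif2c2, numbered 229 and 318 (log2 ratio 0.58, 0.33 to 0.83). The mutation changes the protein's active site, so this level checks no label. Summed fragments of 16 erythroid marker genes, 15 of them with reads, were 1927 RPM in wild type and 1269 in Ago2ADH. Of the 9 with enough reads, 6 had intervals below 0 and 1 above, and their median log2 ratio was -0.54. The globin genes Hba-a2 and Hbb-b2 had log2 ratios of -0.70 and -0.59, and Slc4a1, the red cell anion exchanger, -0.61. Fragments of 14 hepatocyte markers were 13465 and 13923 RPM, with 8 intervals below 0, 3 above and a median of -0.07. The serum protein genes Alb, Trf and Afp had -0.04, 0.32 and 0.29, and Serpina1a, the lowest of the list, -0.88. Fragments of 8 white blood cell markers were 126 and 116 RPM, led by S100a9 (-0.43), S100a8 (-0.07) and Lyz2 (-0.005). Those of 8 endothelial or stellate markers were 41.4 and 37.5 RPM, led by Stab2 with 118 and 128 reads, Cdh5 with 38 and 28 and Pecam1 with 37 and 24. In bulk tissue, fewer cells of a type and less RNA per cell cannot be told apart. The part of these marker levels in the snoRNA results was not tested.

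U17 had the widest gap between the libraries among the 9 members with 100 or more reads. Wild type held 2816 U17 reads and Ago2ADH 1315, or 370.5 and 186.6 RPM. The log2 ratio was -0.99 (-1.08 to -0.89), and the ratio of 0.504 lay just outside the limit of 0.5. Snhg3, the host of 2 U17 genes, had 587 and 297 reads, 77.2 and 42.2 RPM, and a log2 ratio of -0.87 (-1.08 to -0.67). Both were high in wild type and low in Ago2ADH. Among 354 repeat-track names with 100 or more reads, 3 were as low as U17, with U17 itself counted (0.847%). Among 3329 RefSeq genes, 30 were as low as Snhg3, with Snhg3 itself counted (0.901%). These totals chose the members, and most Snhg3 reads were U17 fragments, so the shares only describe and are not separate evidence.

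**Figure D1:**
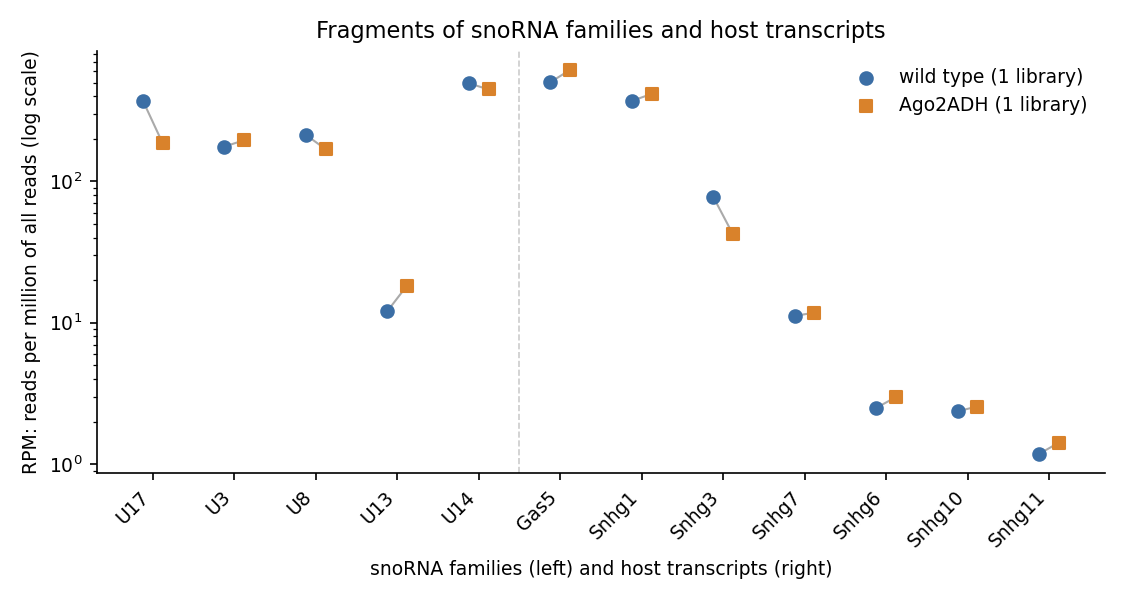
Level in RPM (log axis) for the 5 snoRNA families and 7 host transcripts, with 1 point per library and a grey line joining the genotypes. U17 and Snhg3 have the longest downward lines among the members above 10 RPM, from 370.5 to 186.6 and from 77.2 to 42.2.

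By the size rule, 0 of the 5 families and 0 of the 4 host transcripts with enough reads rose or fell. Over all repeat-track names the same rule called 0.565% lower and 1.13% higher. Over all RefSeq genes it called 0.511% lower and 0.391% higher. Without the size limit, 3 of 5 families had intervals below 0 and 2 above. Over all repeat-track names these shares were 25.99% and 13.3%, with a median log2 ratio of -0.09. Of the 4 hosts, 1 interval lay below 0 and 2 above, where all RefSeq genes gave 9.31% and 10.3%. Counting intervals narrow as reads increase, so these shares depend on depth, which was not matched. Summed over families, reads went from 9617 to 7157 (log2 ratio -0.32, -0.36 to -0.27). U17, from 2816 to 1315, was the largest part of that difference, and U3 and U13 had intervals above 0. Summed over hosts, reads went from 7361 to 7675 (0.17, 0.12 to 0.22). Most of these host reads lay in annotated snoRNAs, as given below.

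U17 fragments came almost wholly from the 5′ end of the snoRNA. Reads on the 3 genes were pooled whichever name the table gave them: 79.8% were listed as U17, 16.3% as Snhg3 and 3.5% as Rpsa. Reads within 2 nt of the annotated 5′ end fell from 3326 to 1502, or from 437.6 to 213.2 RPM (log2 ratio -1.04, -1.13 to -0.95). They are nearly all of the U17 total that chose the member, so this fall restates that total and is not separate evidence. The total itself missed the limit, with a ratio of 0.504, and the pooling of names was chosen after the data were seen. Reads within 2 nt of the 3′ end, which carry the ACA trinucleotide, numbered 134 and 141 (log2 ratio 0.18, -0.17 to 0.53). Of these 3′-end reads, 32 and 24 match Gm25162, a further annotated snoRNA, as well as Snora73b. The intervals of the 2 ends did not overlap. The 5′ end made up 94.9% of U17 reads in wild type (94.1 to 95.6) and 89.9% in Ago2ADH (88.3 to 91.3). The share of the 3′ end was 3.82% (3.21 to 4.51) and 8.44% (7.15 to 9.87).

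**Figure D2:**
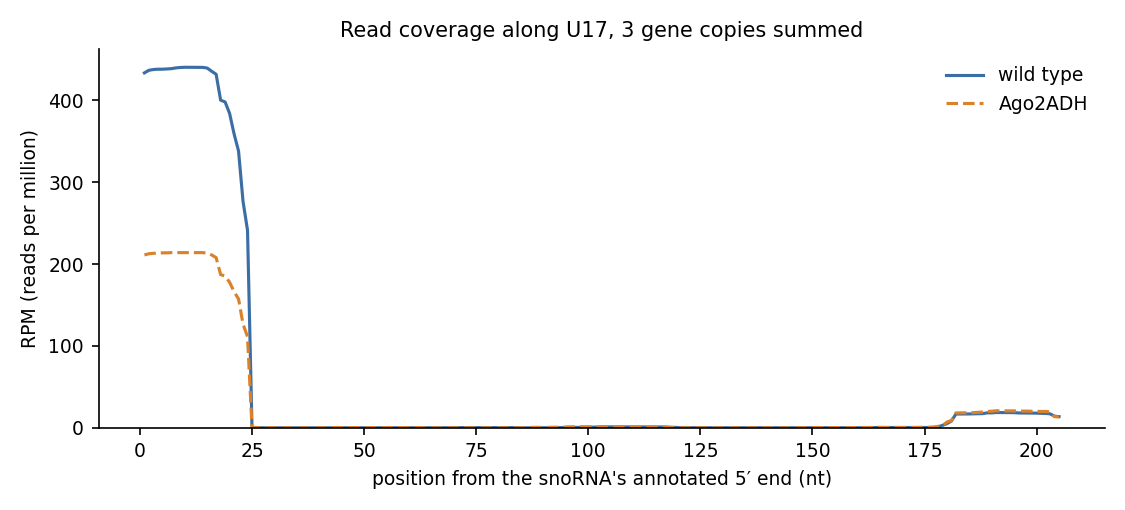
Coverage in RPM at each position of U17, counted in nt from the annotated 5′ end and summed over the 3 gene copies, in wild type (solid) and Ago2ADH (dashed). Nearly all coverage lies in the first 24 nt, where it peaks at 440.4 and 214.0, and in a low shoulder at the 3′ end where the lines lie together.

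The 5′-end fall was seen in each of the 3 U17 copies. The copies are parts of the pooled 5′-end total described above and come from the same libraries, so they are not separate evidence. Over 88 annotated snoRNA 5′-end classes with enough reads, these copies included, the median log2 ratio was -0.05 (range -1.24 to 1.35). How many of those classes fell by the size rule was not counted. Snora73a fell from 1348 to 616 reads (log2 ratio -1.02, -1.16 to -0.88). Snora73b fell from 1544 to 699 (-1.03, -1.17 to -0.90). Gm26448, in another host on another chromosome, fell from 434 to 187 (-1.11, -1.36 to -0.85). The 3 intervals overlapped, so no difference among the copies beyond counting error was seen. Calls of the single copies sat close to the limit: without its most abundant read Snora73a had -0.91 and Gm26448 -0.96. The pooled 5′ end stayed at -1.01 or below under each alternative scaling and read subset, apart from distinct sequences (-0.01), which ignore how often each was read. The 3′ ends of Gm26448 numbered 27 and 44 and those of Snora73a 75 and 70.

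The 5′-end reads had a nearly fixed form. Of them, 82.1% began 1 nt before the annotated start and 16.0% began 2 nt before it. The main reads were 25 nt long and ended at the last capital of the first block shown above. That of Snora73a fell from 635 to 265 reads, that of Snora73b had 593 and 284 (log2 ratio -0.95; a 23-nt form of the Snora73a read had 208 and 109), and that of Gm26448 fell from 213 to 82. Reads of 25 to 26 nt made up 51.2% of U17 reads in wild type and 48.3% in Ago2ADH, against 9.25% and 9.28% of all repeat-track and RefSeq reads. In that length class U17 fell (log2 ratio -1.07), whereas all repeat-track and RefSeq reads together had -0.05. U17 reads of 15 to 18 nt had 284 and 170 reads (-0.63, -0.91 to -0.35), an interval that did not reach -1.

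Snhg3 reads were mostly the same U17 fragments under another name. Of the reads listed under Snhg3, 95.1% lay in an annotated snoRNA. The most abundant was the Snora73b 5′ end with 1 further nt at its start, which fell from 212 to 83 reads. Next came the matching Snora73a read, which fell from 85 to 35. The third was the Snora73a 3′ end shown above, with 45 reads in each library. Reads that matched the spliced Snhg3 RNA numbered 11 in wild type and 11 in Ago2ADH. At that depth the interval of its log2 ratio ran from -1.24 to 1.46, so a 2-fold difference of the spliced host could not be detected. Rpsa, the protein-coding host of Gm26448, had 1259 and 1040 reads in all (log2 ratio -0.17, -0.29 to -0.05). Of these, 111 and 70 lay on U17 genes.

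Gas5 was the most abundant member in both libraries and, like Snhg3, was seen through its introns. Its reads numbered 3823 and 4324, or 503.0 and 613.7 RPM (log2 ratio 0.29, 0.22 to 0.35). Of these reads, 98.7% lay in 9 annotated snoRNAs, all in introns on the host's strand. Reads that matched its RefSeq-linked spliced transcript numbered 41 and 51 (0.42, -0.20 to 1.05), and 8 and 7 matched other annotated isoforms.

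The 9 snoRNAs of Gas5 did not move together. Gm25789 (chr1:161038308-161038383) rose from 525 to 1002 reads, 69.1 to 142.2 RPM (log2 ratio 1.04, 0.89 to 1.20). It was short of the limit when scaled to miRNA reads (0.93) and over distinct sequences (55 and 71, 0.58). Its main read, which spans a TGATGA and a CTGA and stops 5 nt before the annotated 3′ end, rose from 306 to 577. Snord47 (chr1:161038082-161038158), the neighbouring snoRNA upstream, had 1114 and 807 reads (-0.36, -0.49 to -0.22). The intervals of these neighbours lay on opposite sides of 0. Snord80 had 317 and 240 reads (-0.29, -0.54 to -0.05), on the side of Snord47. Gm22489, Gm26224, Gm23212 and Mir5117, whose annotated gene type is snoRNA despite its name, had log2 ratios from 0.39 to 0.52 with intervals above 0. The intervals of Gm22357 and Snord78 included 0. Over all 188 annotated snoRNAs or groups of identical copies with 100 or more reads, 1.06% were called lower and 3.19% higher.

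Read lengths within Gas5 also differed between the libraries. Reads of 27 to 30 nt, the class of the Gm25789 fragment, were 21.5% of Gas5 reads in wild type and 31.2% in Ago2ADH, with 822 and 1351 reads (log2 ratio 0.83, 0.70 to 0.95). Reads of 15 to 18 nt, below the gel range and the class of the Snord47 5′-end read, numbered 919 and 711 (-0.26, -0.40 to -0.12). Over all repeat-track and RefSeq reads, those of 15 to 18 nt had a log2 ratio of -0.14, inside the Gas5 interval, and the share of 27 to 30 nt was 21.4% and 22.6%. That Snord47 read had 245 and 116 reads (-0.97). The main Gm22489 read, from the 5′ end, had 208 and 271 (0.49).

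**Figure D3:**
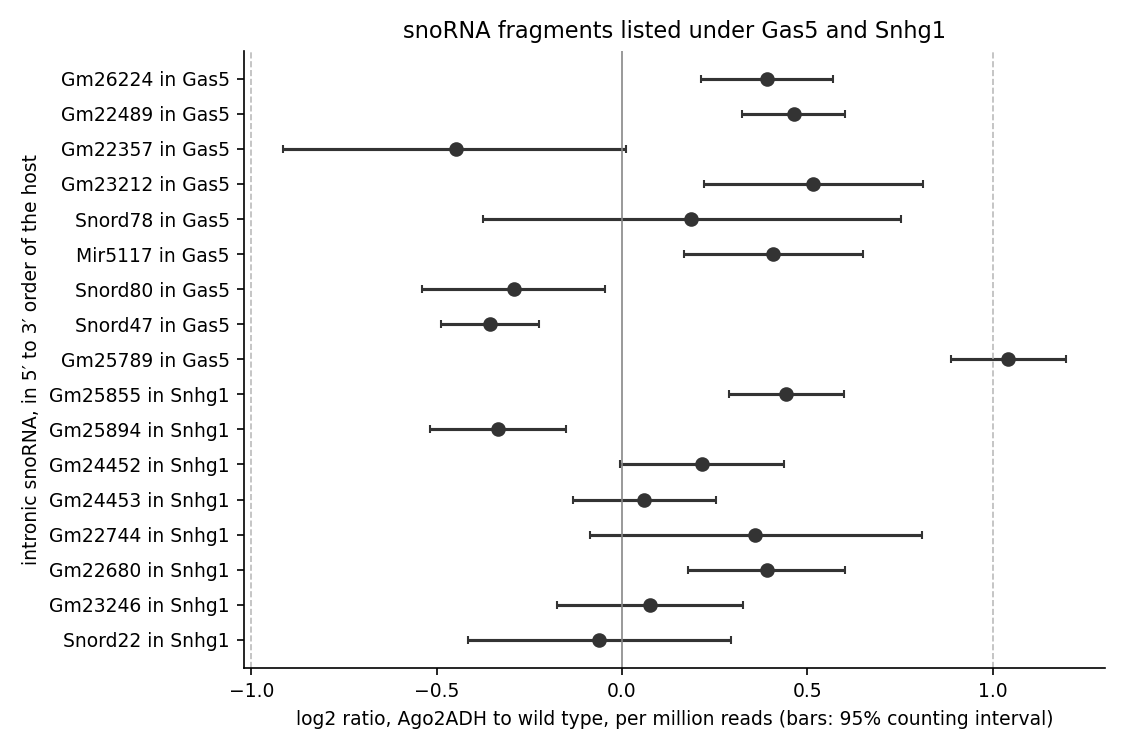
Log2 ratio of Ago2ADH to wild type for each intronic snoRNA with 100 or more reads listed under Gas5 (9) and Snhg1 (8), in 5′ to 3′ order, with 95% counting intervals and dashed lines at a 2-fold difference. Gm25789 lies at 1.04, beyond the upper line, while Snord47 beside it lies at -0.36.

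Snhg1, which hosts 8 C/D snoRNAs, had 2820 and 2922 reads, 371.1 and 414.7 RPM (log2 ratio 0.16, 0.09 to 0.24). Of its reads, 98.8% lay in annotated snoRNAs, while 4 and 5 reads matched its RefSeq-linked spliced transcript and 16 and 34 other isoforms. Its snoRNAs ranged from 0.44 for Gm25855, with 610 and 769 reads, to -0.33 for Gm25894, with 579 and 426. Gm22680 had 335 and 407 reads (0.39, 0.18 to 0.60), and the intervals of the other 5 included 0. The main Gm25855 read had 109 and 175 reads (0.79), the main Gm22680 read 145 and 134, and a Gm25855 read 1 nt longer 94 and 166. Snhg7 had 85 and 83 reads (0.07, -0.38 to 0.53). Only 53.6% of Snhg7 reads lay in annotated snoRNAs, and its main read, with 15 and 6 counts, lay outside them. The next reads, from the 3′ and 5′ ends of Snora17, had 4 and 11 and 4 and 8. The 3 remaining hosts had 19 to 40 reads each over both libraries, too few for the rule.

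Among the C/D families, U8 had 1618 and 1190 reads, 212.9 and 168.9 RPM (log2 ratio -0.33, -0.44 to -0.23). U8 is Snord118 (chr11:69073427-69073561, plus strand). Its 3′-end reads, which carry CTGA, numbered 1284 and 852 (-0.48, -0.61 to -0.36). Its internal reads numbered 339 and 345 (0.13, -0.09 to 0.35). The 2 intervals did not overlap. The share of the 3′ end was 78.8% in wild type (76.8 to 80.8) and 71.1% in Ago2ADH (68.5 to 73.7). Within the 3′ end the starts differed: reads from position 120 fell from 357 to 164 (-1.01), those from 121 numbered 254 and 201 (-0.23), and those from 122 numbered 45 and 76 (0.87). The main 17-nt read, from position 120, fell from 293 to 124, and the next, from position 121, had 218 and 183. The 28-nt internal read that starts at position 48 and holds TGATGA had 128 and 151.

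U14 had 3751 and 3148 reads, 493.6 and 446.8 RPM (log2 ratio -0.14, -0.21 to -0.07). Most lay in Snord14c and Snord14d, in introns 5 and 6 of Hspa8, a heat shock protein gene. Pooled over all names, its 5′-end reads numbered 1642 and 1661 (0.13, 0.03 to 0.23) and its 3′-end reads 3005 and 2106 (-0.40, -0.48 to -0.32), while internal reads numbered 92 and 66 (-0.37, -0.85 to 0.10). The 3′-end values differed by copy group: those matching both Snord14c and Snord14d numbered 1780 and 1445 (-0.19, -0.29 to -0.09), and those matching both Snord14a and Snord14e 1007 and 541 (-0.79, -0.94 to -0.64). The share of the 3′ end was 63.4% in wild type (62.0 to 64.8) and 54.9% in Ago2ADH (53.4 to 56.5). Each U14 position was counted on the first copy that the read matched, and the copies are 86 to 90 nt long. Differences between starts therefore cannot be told apart from differences between copies. Reads from position 64 fell from 165 to 54 (-1.50). The most abundant 3′ read, from position 67 of Snord14c and Snord14d, had 400 and 367. The next reads, 16 and 20 nt from the 5′ end, had 148 and 194 and 197 and 136. Only 10.6% of U14 reads match the genome once, so the split of reads within each copy group is uncertain.

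**Figure D4:**
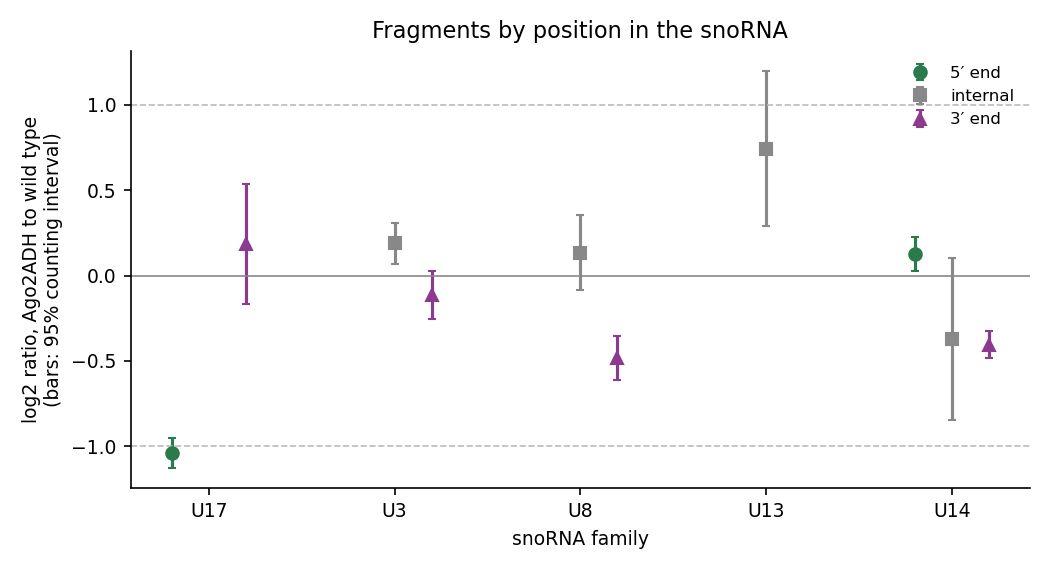
Log2 ratio of Ago2ADH to wild type for reads at the 5′ end, inside and at the 3′ end of each snoRNA family, pooled over all names, where a class had 100 or more reads. Bars are 95% counting intervals and dashed lines mark a 2-fold difference. In U17 the 5′ end is the low class (-1.04), whereas the 3′ end lies below the internal class in U8 (-0.48 against 0.13) and below the 5′ end in U14 (-0.40 against 0.13), where the internal class is at -0.37.

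U3 hardly differed in total, with 1340 and 1375 reads, 176.3 and 195.1 RPM (log2 ratio 0.15, 0.04 to 0.26). Only 13.996% of its reads match the genome once, because several U3 genes are near-identical. With those reads alone the log2 ratio was -0.20, on the other side of 0. The main read, from position 76, had 152 and 156. The second, from the 3′ end, had 37 and 41. A 25-nt read from position 23 had 4 reads in wild type and 53 in Ago2ADH (3.84, 2.40 to 5.76), below the minimum of 100 for a call. All reads from position 23 numbered 12 and 73, and those from position 28 numbered 14 and 56. At position 40 coverage was 13.6 RPM in wild type and 36.3 in Ago2ADH, whereas reads from position 5 numbered 31 and 31 and those from position 50 numbered 34 and 37. A further 33.0% of reads on U3 genes were listed under Tex14, mostly from the 3′ end, and with them the U3 total had a log2 ratio of 0.06 (-0.03 to 0.15).

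U13 was the rarest family, with 92 and 129 reads, 12.1 and 18.3 RPM (log2 ratio 0.60, 0.20 to 0.999). It comes from Snord13 (chr8:31149864-31149967, minus strand). Reads from position 18, which hold TGATGA, rose from 39 to 74 (1.03, 0.45 to 1.63). The main read, from that position, had 16 and 43. Without it the log2 ratio of U13 was 0.29, and over distinct sequences it was 0.04. The second U13 read, from the 3′ end with CTGA, had 11 and 3, and the third 5 and 5. The 3′ end as a whole numbered 22 and 20, and its interval of -0.98 to 0.91 was too wide to place it.

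**Figure D5:**
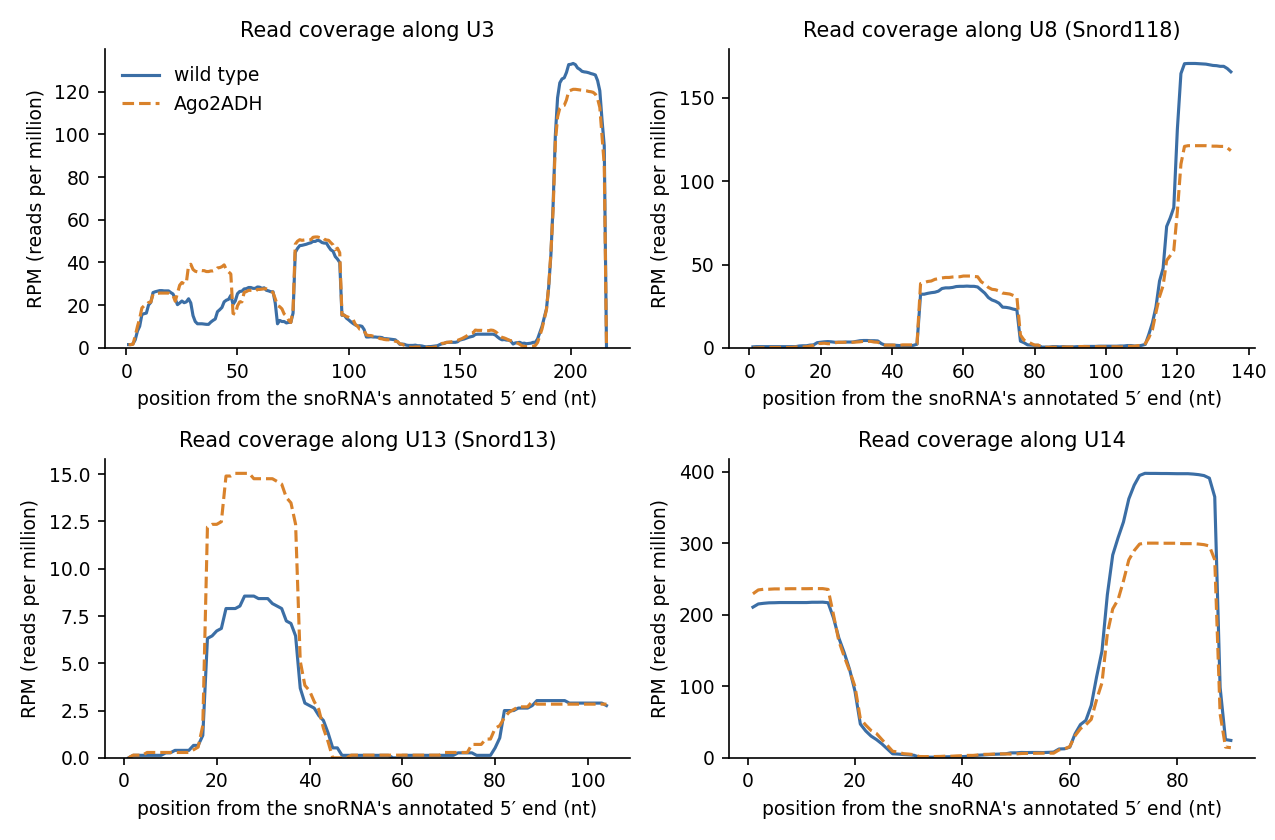
Coverage in RPM at each position of U3, U8, U13 and U14, in nt from the annotated 5′ end, in wild type (solid) and Ago2ADH (dashed), with a separate linear scale per panel. The lines part at the 3′ ends of U8 and U14 (170.7 against 121.3 and 397.8 against 300.2 at the peaks), near position 40 of U3 and in the early part of U13, where the peaks are 8.55 and 15.04.

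Annotated H/ACA snoRNAs, taken by name, were set beside the U17 5′ end. They include the 2 named U17 genes, so their values are not independent of U17. Their 5′-end class had 100 or more reads in 14 cases, with a median log2 ratio of -0.30 and a range of -1.03 to 0.17. Their 3′-end class had 7 such cases, with a median of 0.28. The lowest of the 14 was Snora73b itself. A name does not give the type of every RNA, and some 5′ ends outside the H/ACA names were lower or close to it. Among them were Scarna3a (74 and 29 reads, -1.24, -1.91 to -0.60) and Snord55 (256 and 117, -1.02). The third U17 copy, Gm26448, also lies outside these names (434 and 187, -1.11). Over 27 named C/D snoRNAs the 5′-end median was 0.11, and over 21 the 3′-end median was 0.07. All reads on 1529 annotated genes of the snoRNA set had a log2 ratio of -0.03 (-0.04 to -0.01).

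Proteins of the snoRNA pathway and other hosts were read from all reads listed under their RefSeq names. For snoRNA hosts such reads can come from intronic snoRNAs as well as from the mRNA. Of the 1423 and 1003 reads listed under Hspa8, 838 and 579 lay on U14 genes. That split was not made for the hosts named in this paragraph. None of the genes on these lists rose or fell. Of 4 box C/D proteins, 2 had enough reads: Nop56, a core protein of the particle and itself a snoRNA host, with 1174 and 879 (log2 ratio -0.31), and Nop58 with 134 and 117 (-0.09). Nhp2l1 had 27 and 22 reads. The 4 box H/ACA proteins had 49 and 53 reads together, and 0 of them could be assessed singly; Dkc1, the pseudouridine synthase, had 26 and 25, Nop10 15 and 14 and Gar1 7 and 9. The same held for 15 assembly and cap factors, with 211 and 157 reads together, led by Tgs1 with 31 and 23, Shq1 with 31 and 15 and Ruvbl2 with 25 and 17. Of 29 proteins of the U3 processome, only Rcl1 had enough reads, 125 and 104 (-0.16). Utp20 had 52 and 26 and Pdcd11 46 and 27. Among 34 protein-coding snoRNA hosts with enough reads the median was -0.11, with 10 intervals below 0 and 5 above. Of these, Rps12 had 2386 and 1866 reads (-0.25), Eif4a2 2344 and 3091 (0.51) and Ncl 1947 and 1567 (-0.20). Over all RefSeq genes the median was 0.004, with 9.31% of intervals below 0 and 10.3% above.

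Gas5 RNA begins with a terminal oligopyrimidine tract, as do mRNAs of the translation machinery, and its spliced form is a substrate of nonsense-mediated decay. Of 12 coding mRNAs with such a tract and enough reads, 3 had intervals below 0 and 0 above, and the median was -0.09. Eef1a1, an elongation factor, had 1638 and 1400 reads (-0.12), and Pabpc1, the poly(A)-binding protein, had 776 and 508 (-0.50). Eif4b, an initiation factor, had 165 and 174 (0.19). Of 5 decay factors the median was 0.02, and Smg1, the kinase of that pathway, had 261 and 246 reads (0.02). Smg6 had 159 and 135 (-0.13). Of 6 other long noncoding RNAs 2 lay below 0 and 3 above. H19 had 4345 and 4478 reads (0.15), Rmrp, an RNA of the ribosomal precursor pathway, 4217 and 2893 (-0.43), and Malat1 2557 and 2728 (0.20).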

How the data were processed

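For each distinct sequence, the authors gave unnormalized counts in both libraries, its genome matches, 1 annotation class and 1 name, per the file headers. The sources used here state no aligner, build or trimming. Columns of other samples numbered 0. Genotypes came from the labels. The members and gene lists were chosen with earlier results of these data known.

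Repeat-track members were matched on the name before the ".snRNA" suffix. Counts were scaled to all reads. Ratios have exact conditional binomial 95% intervals and shares exact Clopper-Pearson 95% intervals. PCR reads carry no molecular identifiers, so intervals and floors (3 counts) cover counting error only. The size rule was tested on simulated data. Reads were placed by exact match on 1529 annotated snoRNA genes of GENCODE M21 (GRCm38), allowing 2 nt beyond either end, and an end class allows 2 nt. That build may not be the authors'. Results name every family, every host with 100 or more reads, up to 3 reads of each, and of each list the genes past the rule or else the 3 with most reads, apart from 1 gene that is not reported here. Other reads, positions and single snoRNAs were named after their values were seen. Alternatives covered scaling (TMM by edgeR 4.0.16), read length, genome matches, distinct sequences and limits. Python 3.11.15, pandas 2.3.3, scipy 1.17.1 and R 4.3.3 were used.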

Additional observations from a re-analysis of the deposited data

Results flagged for a closer look

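By the size rule, 6 of 188 annotated snoRNAs or groups of identical copies with 100 or more reads rose in Ago2ADH (3.19%). The 3 described here had no reads under the member names. The remaining ones held such reads, and the largest log2 ratio among the 188 was 2.21, in an entry without a type in its name. Snora65, an H/ACA snoRNA seen through its 3′ end, rose from 61 to 151 reads (log2 ratio 1.42, 0.98 to 1.87). Snora15, seen mostly through its 5′ end, rose from 33 to 72 (1.23, 0.62 to 1.88). Gm23201, seen through internal reads, rose from 88 to 172 (1.08, 0.70 to 1.46). Each was singled out because its reads lie outside the member names and exceeded the wild type level. None has a replicate. In the other direction, Snord71, also outside the members, fell from 450 to 201 (-1.05, -1.30 to -0.81).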

How the results depend on the processing

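No paired analysis was possible because there was 1 library per genotype and the labels give no replicate numbers. The log2 ratio of the summed families, -0.32, was -0.43 scaled to miRNA reads, -0.40 with reads of 19 to 30 nt, -0.62 with reads of 1 genome match, -0.48 with counts divided by genome matches, and 9.25e-05 over distinct sequences. That of the summed hosts, 0.17, was 0.0587 scaled to miRNA reads, 0.25 scaled to RefSeq reads, 0.25 with reads of 19 to 30 nt and 0.24 over distinct sequences. The count of members that fell, 0, was 1 (U17) scaled to miRNA reads, and 2 (U17 and Snhg3) with a fold limit of 1.5, where 1 (U13) rose. U17 kept its direction under all 11 alternatives, from -1.10 to -0.06, and -0.06 came from distinct sequences, which ignore how often each was read. Snhg3 reversed there, to 0.0563, as did the 5′ ends of Snora73a (0.00896) and Gm26448 (0.152). The call of the Snora73a 5′ end also ended with reads of 20 to 24 nt (-0.89) and scaled to repeat-track reads (-0.99), and that of Gm26448 with reads of 20 to 24 nt (-0.996). Scaling to miRNA reads moved all log2 ratios by -0.11. U3 reversed to -0.20 with reads of 1 genome match and to -0.00131 with counts divided by genome matches. The 5′-end share of rows named U17 changed by -0.79 percentage points, and by 1.36 over distinct sequences. That of U14, 8.57 points higher, was 15.5 with reads of 1 genome match. The Gas5 share of 27 to 30 nt, 9.74 points higher, was 1.96 over distinct sequences. Pooling all names on each family's genes, and all values for single U17 copies and Gm25789 were chosen after seeing the data. Pooling moved no family past its counting interval.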
